A study of Mus musculus with 9 samples.

Results

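The sodium pump subunits and water channels described here were followed through 9 probe sets, all those that the platform annotation gives to Atp1b1, Atp1b2, Atp1b3, Fxyd1, Fxyd3 or Aqp1 alone, of 12488 on the array. They stand for 6 of 8251 genes that have a probe set of their own. The 7 genes of the rule were chosen by name. The seventh, Aqp5, the water channel of the corneal epithelium and of secretory glands, has no probe set of its own in the annotation used and was not analysed here. The measurements came from 9 oligonucleotide arrays, each hybridised with biotin-labelled target made from total RNA. Of these, 3 held cornea from 7-week-old adult mice and 2 held cornea from mice at postnatal day 10 (P10). Another 2 held lens and 2 the flexor digitorum longus tendon, also from 7-week-old adults. Strain and sex were not given in the sources used here, and no group carried a named allele or treatment. Corneas were cut free of the limbus and scraped to remove epithelium, which did not remove all epithelial RNA, per the series' design text, and lenses and tendons were pooled before RNA was extracted. Replicates were independent RNA preparations.

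The sodium pump is an ATPase that exports sodium and imports potassium across the cell membrane. Its catalytic alpha subunit needs a glycosylated beta subunit to reach the membrane, and small FXYD proteins bind the pair and adjust its affinity and turnover. In the cornea, pumping by the endothelium on the inner face keeps the stroma from swelling and clouding, and the lens depends on a sodium gradient set up largely by its own epithelium. Aquaporins let water follow the ions, with AQP1 known from corneal endothelium and keratocytes, AQP5 from corneal epithelium and AQP0, the product of Mip, from lens fibres. The genes of the alpha subunits were not analysed here, since no probe set in the annotation was given to one of them alone.

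All levels are the deposited expression indices in arbitrary units, and levels are compared between tissues for a probe set, never between probe sets. Array medians ran from 67.6 to 88.0, and precision is limited by having 2 or 3 arrays a group. Tests covered the 8154 probe sets with 2 or more of their 9 values at or above the median of the array, among them 7 of the 9 described here. Differences are given on the log2(index + 16) scale with the standard error (SE) of limma's fit to all 9 arrays, and they understate the folds of low probe sets. A difference was called at a limma adjusted p under 0.05. Adult cornea replicate 1 stood apart in RNA quality, with a 3'/5' ratio of the Gapdh control of 2.25, against 0.831 to 1.04 on the other arrays. The arrays otherwise carried the markers of their tissues. The summed index of 8 epithelial markers ran from 21243 to 24406 in corneas, from 2574 to 3165 in lens and from 636 to 1380.0 in tendon, and 6 lens markers summed to 4495 to 8250 (corneas), 29239.7 to 30922 (lens) and 164 to 200.2 (tendon). Corneas thus carried epithelial transcripts and read above tendon for the lens markers as a sum. The lens markers were uneven there: Bfsp1 read 61.5 to 147 in corneas against 3731 and 3300 in lens. Whether the lens marker signal on the cornea arrays came from lens material was not tested. Tendon arrays also carried skeletal muscle, with 9 markers summing to 287 to 916 in corneas, 217 and 313 in lens, and 36655 and 44004 in tendon. The cornea arrays had served an earlier study, per the series' design text, so that a batch cannot be told apart from the tissue in any comparison of cornea with lens or tendon. In such bulk RNA, fewer cells of a type and less RNA per cell cannot be told apart.

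**Figure D1:**
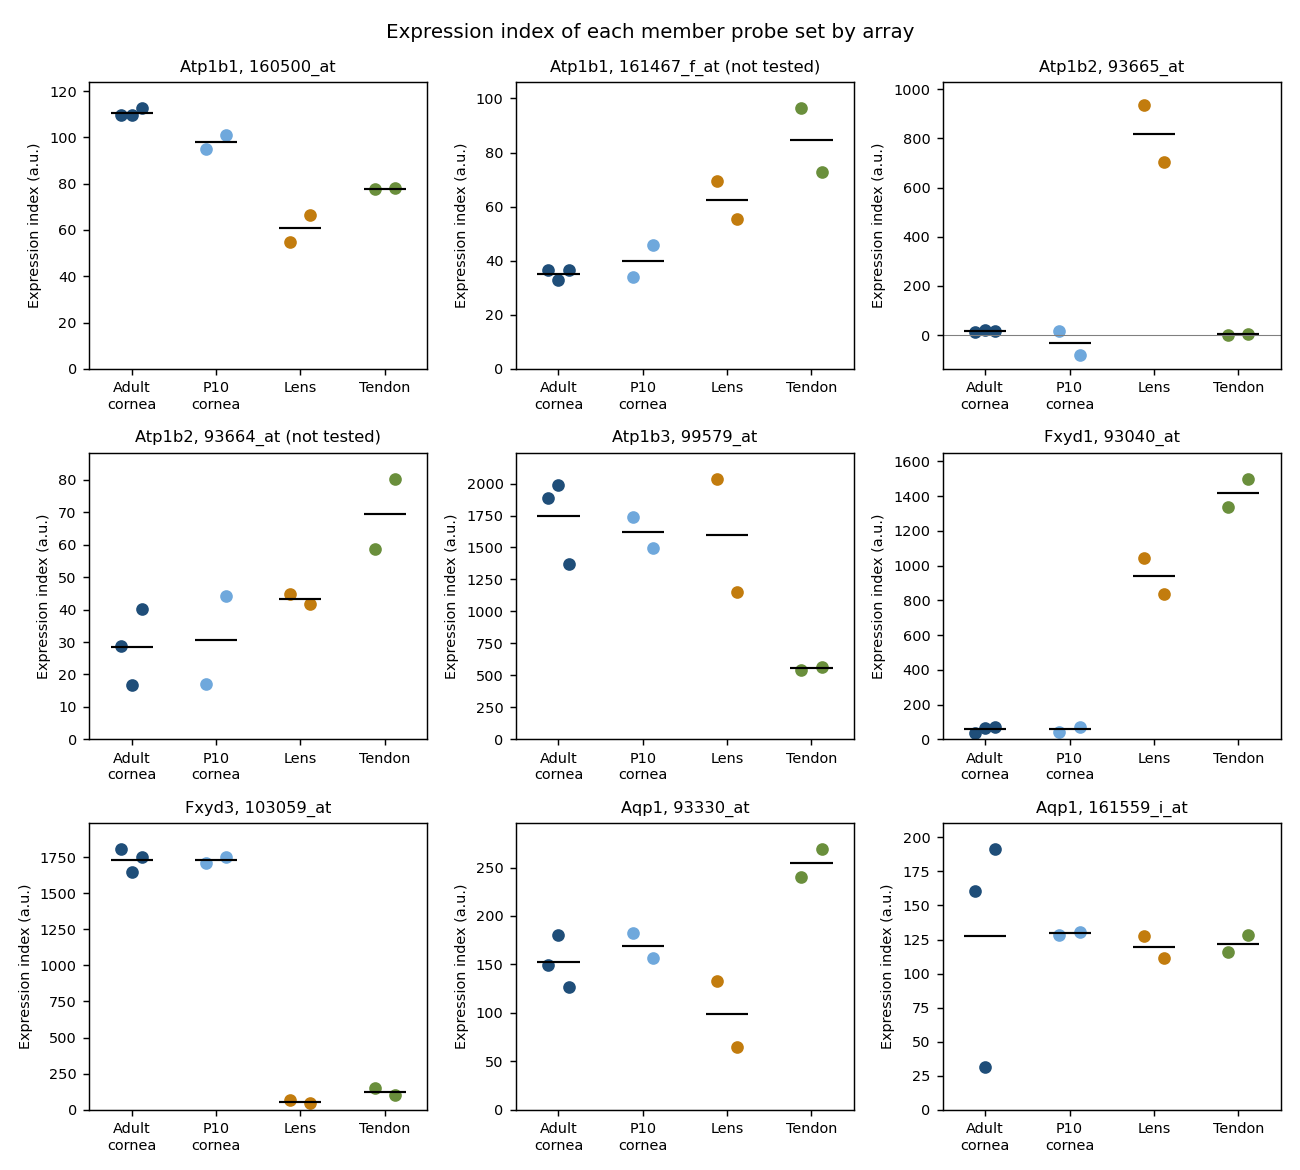
Expression index (arbitrary units, linear axes that differ between panels) of the 9 probe sets on each array, with adult cornea, P10 cornea, lens and tendon from left to right; points are arrays and black lines group means. Fxyd3 was high on all 5 cornea arrays, Fxyd1 on the 4 lens and tendon arrays, 1 Atp1b2 set on the 2 lens arrays, and Atp1b3 was lowest on the 2 tendon arrays.

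Of the 3 beta subunits, Atp1b3 was measured well above the array median in every tissue. It encodes beta 3, a widely expressed isoform. The index of its probe set was 1883, 1991 and 1369.5 on the adult cornea arrays, 1740.3 and 1499 on the P10 cornea arrays, 2037 and 1155 on the lens arrays, and 543 and 565 on the tendon arrays. Tendon lay below all other arrays, while the ranges of adult cornea, P10 cornea and lens overlapped and the lens arrays were the furthest apart. Adult cornea was 3.05-fold above tendon (log2 1.61 ± 0.25 SE, limma adjusted p = 0.000681). P10 cornea was 2.86-fold above tendon (limma adjusted p = 0.00278), and lens 2.72-fold (limma adjusted p = 0.00160). All 3 calls were kept in each of the 18 alternative limma settings. A lower level in tendon than in each of the other groups was called for 330 of the 8154 tested probe sets, or 4.05%. Between adult cornea and lens the difference in log2 was 0.17, with a 95% interval from -0.39 to 0.73 (limma adjusted p = 0.603), so that differences of more than 1.66-fold in favour of cornea lay outside it.

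Atp1b2 read high in lens alone by the first of its probe sets. It encodes beta 2, first known as a glial adhesion molecule (AMOG) and present in brain and muscle. The index was 13.0, 20.8 and 17.5 in adult cornea, 16.7 and -80.6 in P10 cornea, 935 and 702 in lens, and 2.37 and 5.52 in tendon. The lens arrays stood far above all others, which were near 0. The probe set passed the filter through its lens arrays alone, so that a call was bound to follow. On the log2(index + 16) scale lens was above tendon by 5.38 (± 0.33 SE, limma adjusted p = 7.24e-07), and the difference in log2 was -4.65 ± 0.30 SE for adult cornea against lens (limma adjusted p = 1.44e-06) and -5.17 ± 0.33 SE for P10 cornea against lens (limma adjusted p = 2.01e-06). Adult cornea and tendon differed by 0.73 (limma adjusted p = 0.0870), near the bottom of the scale. No fold is given against tissues whose indices were near or below 0. The sizes moved with the settings, pseudocount included: from 3.69 to 7.43 for lens against tendon, from -5.51 to -3.43 for adult cornea against lens and from -7.59 to -3.60 for P10 cornea against lens. The part of lens RNA in the low Atp1b2 values of cornea was not tested. A higher level in lens than in each other group was called for 1228 of the 8154 tested probe sets (15.1%). The lens markers on the cornea arrays were of unequal size: Cryaa, an alpha crystallin of lens, read 1279.7 to 3082 there against 6405 and 7231 in lens, while Gja3, a lens fibre connexin, read -0.057 to 7.13 against 546 and 415.

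The other Atp1b2 probe set did not show the lens level. The index of the second set was 28.7, 16.8 and 40.3 in adult cornea, 17.1 and 44.3 in P10 cornea, 44.8 and 41.8 in lens, and 58.8 and 80.3 in tendon. It passed the array median on 1 array and was not tested. Tendon, not lens, was its highest tissue. In the fit with no filter on low values, the difference in log2 of adult cornea against tendon was -0.96 ± 0.30 SE (limma adjusted p = 0.0361) and that of lens against tendon was -0.52 ± 0.33 SE (limma adjusted p = 0.242). Which of these probe sets reads the Atp1b2 transcript present in these tissues was not tested.

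Atp1b1 encodes beta 1, the partner of the alpha subunit in most epithelia. Its first probe set had an index of 109.8, 109.7 and 113 in adult cornea, 94.9 and 101 in P10 cornea, 54.7 and 66.7 in lens, and 77.7 and 78.0 in tendon. The group means ran in the order adult cornea, P10 cornea, tendon, lens, and all values lay close to the array medians. Adult cornea was 1.66-fold above lens (log2 0.73 ± 0.17 SE, limma adjusted p = 0.00480), which held in all 18 settings. P10 cornea was 1.49-fold above lens (log2 0.58 ± 0.18 SE, limma adjusted p = 0.0248), a call lost with quantile normalization, trimmed mean scaling and median centring and without either P10 cornea array or lens replicate 1 (limma adjusted p = 0.0609 to 0.1796). Neighbours in the order did not differ beyond the threshold: adult against P10 cornea had limma adjusted p = 0.768, P10 cornea against tendon 0.297 and lens against tendon 0.211.

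The second Atp1b1 probe set ran the other way. Its identifier ends in _f_at, which marks probes shared by a family of similar sequences, and it read 36.5, 32.7 and 36.4 in adult cornea, 34.0 and 45.9 in P10 cornea, 69.3 and 55.2 in lens, and 96.3 and 72.8 in tendon. All 5 cornea arrays lay below all lens and tendon arrays. It passed the array median on 1 array and was not among those tested. With no filter on low values the difference in log2 was -0.61 ± 0.20 SE for adult cornea against lens (limma adjusted p = 0.0350) and -0.96 ± 0.20 SE for adult cornea against tendon (limma adjusted p = 0.00517). The direction of an Atp1b1 difference between cornea and the other tissues therefore depended on the probe set, and both were dim.

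**Figure D2:**
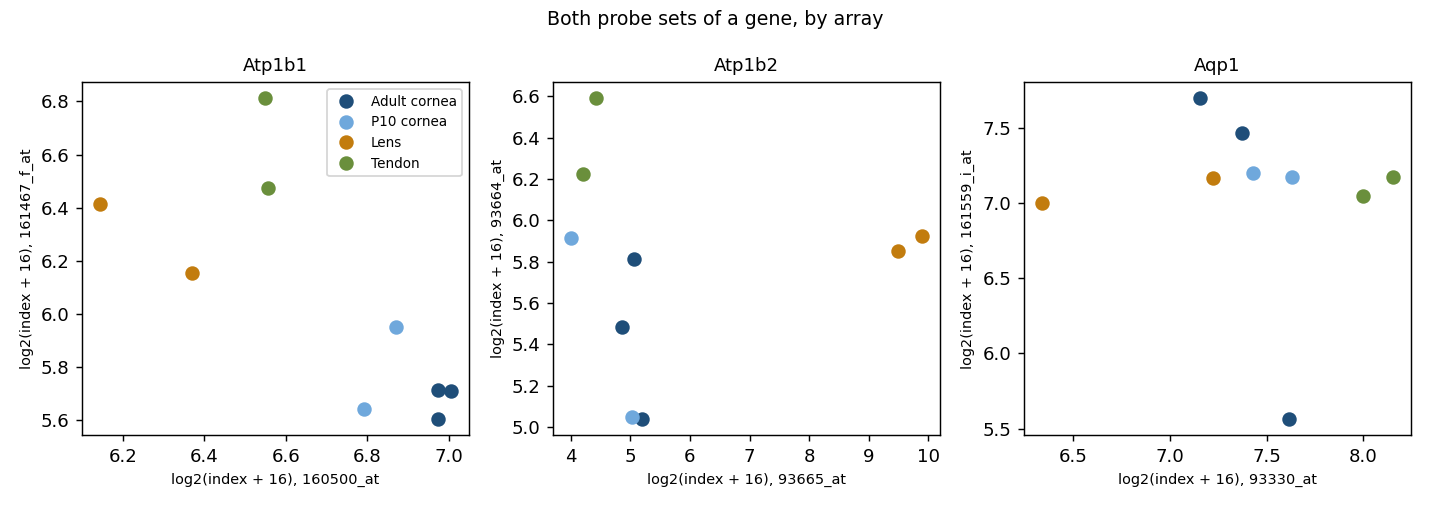
Values of log2(index + 16) for the 2 probe sets of Atp1b1, Atp1b2 and Aqp1 on each of the 9 arrays, coloured by tissue. In none of the 3 panels did the arrays fall along a rising line: for Atp1b1 the corneas were highest on the x axis and lowest on the y axis, for Atp1b2 the lens arrays stood apart on the x axis alone, and for Aqp1 adult cornea replicate 2 dropped on the y axis alone.

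The FXYD regulators Fxyd3 and Fxyd1 split the tissues in opposite directions. Fxyd3, which encodes a regulator first cloned from mammary tumours (Mat-8) and found in many epithelia, read 1803, 1645 and 1749 in adult cornea, 1709 and 1748 in P10 cornea, 69.0 and 45.2 in lens, and 148 and 102 in tendon. Fxyd1, which encodes phospholemman, a pump regulator of heart and skeletal muscle that is phosphorylated by protein kinases, read 34.6, 67.2 and 70.7 in adult cornea, 41.2 and 71.7 in P10 cornea, 1042 and 839 in lens, and 1336 and 1499.7 in tendon. Every cornea array was thus high for Fxyd3 and low for Fxyd1, and every lens and tendon array the reverse, with no overlap.

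Fxyd3 was 24.2-fold higher in adult cornea than in lens (log2 4.60 ± 0.21 SE, limma adjusted p = 2.68e-07) and 12.6-fold higher than in tendon (log2 3.65 ± 0.21 SE, limma adjusted p = 7.27e-07). By size its difference ranked 63 of 8154 against lens and 191 of 8154 against tendon. P10 cornea differed from lens by 4.60 (limma adjusted p = 6.95e-07) and from tendon by 3.65 in log2 (limma adjusted p = 2.11e-06). A rise in the cornea of both ages over both other tissues was called for 579 of the 8154 tested probe sets (7.1%), and Fxyd3 was also among the 515 (6.32%) called in all 5 comparisons between tissues. Lens was 1.93-fold below tendon (log2 -0.95 ± 0.23 SE, limma adjusted p = 0.00685), a call lost without tendon replicate 1 (limma adjusted p = 0.0800). Between the 2 tendon arrays the epithelial sum ran with Fxyd3, at 1380.0 on replicate 1 against 636 on replicate 2. Krt14, a basal keratin, was at 124 against 20.5 there, while Krt5 ran the other way. Between the tissues the sum ran against Fxyd3, since it was higher in lens, at 3165 and 2574. The 8 listed epithelial markers did not share 1 order of lens and tendon. Krt12, the keratin of corneal epithelium, read 1758 and 1603 in lens and 401 and 257 in tendon, and Aldh3a1, a corneal aldehyde dehydrogenase, 696 and 484 in lens and -6.41 and -14.1 in tendon. Krt14 was at 4.18 and 10.2 and Krt15 at 0.721 and 13.4 in lens, with Krt15 at 121 and 43.1 in tendon. Krt5 read 62.0 to 142 in corneas, 117 and 92.6 in lens, and 84.2 and 111 in tendon. The part of epithelial RNA in the Fxyd3 levels was not tested.

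Fxyd1 passed the filter through its 4 lens and tendon arrays alone, with all 5 cornea arrays below their medians, so that a difference from cornea was bound to follow. It differed by -3.74 ± 0.28 SE in log2 between adult cornea and lens, 13.3-fold lower in cornea (limma adjusted p = 3.59e-06), and by -4.32 ± 0.28 SE between adult cornea and tendon, 20.0-fold lower in cornea (limma adjusted p = 1.45e-06). For P10 cornea the differences in log2 were -3.75 against lens (limma adjusted p = 8.42e-06) and -4.34 against tendon (limma adjusted p = 4.41e-06). A fall in the cornea of both ages below both other tissues was called for 174 of the 8154 tested probe sets (2.13%). Lens and tendon did not differ beyond the threshold (log2 -0.59, 95% interval -1.28 to 0.098, limma adjusted p = 0.141). Muscle markers moved with Fxyd1 in tendon, where Myh4, a fast myosin heavy chain, read 5580 and 6738. In lens they did not: Myh4 read 1.49 and 0.273 and the troponin Tnni2 0.455 and -4.56, beside a Fxyd1 index of 1042 and 839. Pmp22, a myelin gene of Schwann cells, moved with Fxyd1 in both tissues, at 126 to 201 in corneas, 717 and 361 in lens, and 1665 and 2450 in tendon, while Mbp, the other of 2 glial markers measured among 5, read 268 to 443 on all 9 arrays. The 2 measured adipocyte markers of 4 summed to 34.4 to 63.2 in corneas, 105 and 98.6 in lens, and 2900 and 2966 in tendon. The part of muscle, Schwann cell and fat RNA in the Fxyd1 levels was not tested.

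**Figure D3:**
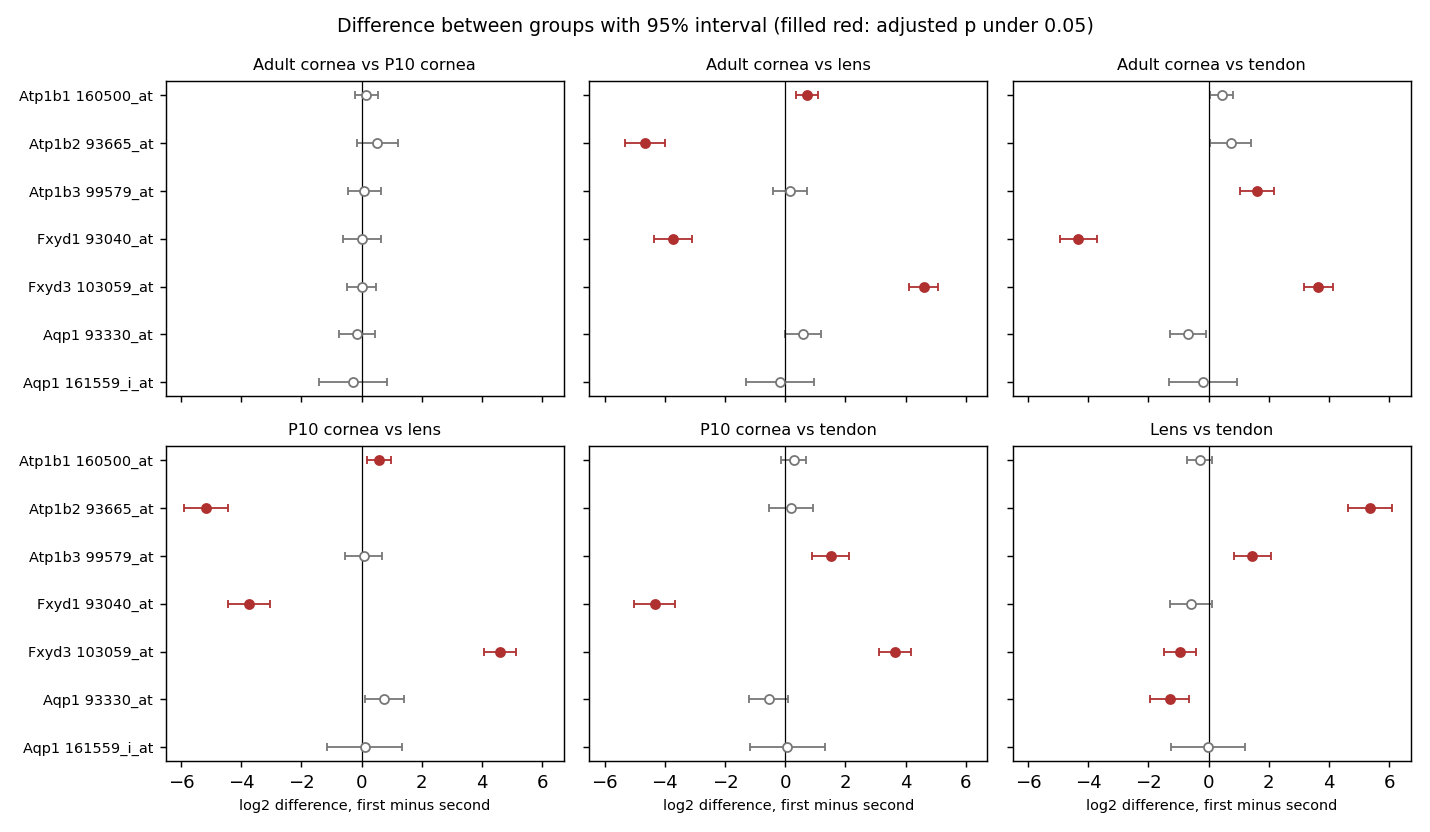
Differences in log2(index + 16), first group minus second, of the 7 tested probe sets in the 6 comparisons, with 95% intervals from limma's fit; filled red points had an adjusted p under 0.05. Fxyd1 and Fxyd3 lay on opposite sides of 0 in all 4 comparisons of cornea with lens and tendon, and no interval excluded 0 between adult and P10 cornea.

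Fxyd1 and Fxyd3 belong to a run of Fxyd genes on mouse chromosome 7, in the order Fxyd5, Fxyd7, Fxyd1, Lgi4, Fxyd3, Hpn among protein-coding genes of RefSeq's GRCm38.p6 table. By group means, Fxyd5 and Fxyd1 read highest in tendon, Fxyd7 in adult cornea and Fxyd3 in cornea of both ages, and the last 2 read lowest in lens. Fxyd5, which encodes dysadherin, an FXYD protein that affects cell adhesion, read 19.3, 9.19 and 44.5 in adult cornea, 66.6 and 48.1 in P10 cornea, 28.5 and 39.8 in lens, and 424 and 465 in tendon. The difference in log2 was -3.61 for adult cornea against tendon (limma adjusted p = 1.57e-05) and -3.20 for lens against tendon (limma adjusted p = 4.34e-05), but Fxyd5 passed the filter through its 2 tendon arrays alone, so that a call was bound to follow. Fxyd7, a regulator known from brain, read 280.0, 231 and 194 in adult cornea, 199 and 140.2 in P10 cornea, 75.4 and 57.3 in lens, and 210.03 and 208 in tendon. It was 3.04-fold higher in adult cornea than in lens (limma adjusted p = 0.000212) and 2.75-fold lower in lens than in tendon (limma adjusted p = 0.000716), while adult cornea and tendon did not differ beyond the threshold (limma adjusted p = 0.661). Lgi4, a secreted protein gene that acts in myelination and lies between Fxyd1 and Fxyd3, read 66.9 to 77.5 in adult cornea, 60.2 and 75.5 in P10 cornea, 119 and 129 in lens, and 76.3 and 124 in tendon. It followed neither neighbour in size, with a difference of -0.65 in log2 between adult cornea and lens (limma adjusted p = 0.0277). Lgi4 passed the filter through its lens and tendon arrays alone, which favours such a call. Lgi4 and Hpn were added for their position after their values were seen, and Lgi4 and Fxyd3 overlap in the annotation, so that their signals could be mixed if a probe set lies in the shared stretch, which was not tested.

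**Figure D4:**
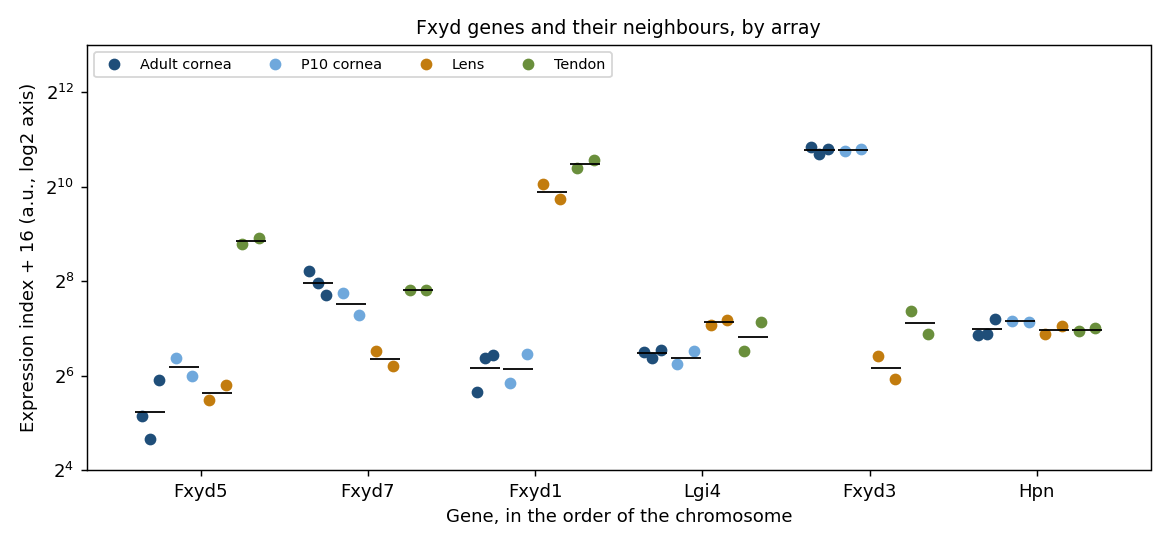
Expression index plus 16 (log2 axis) of the Fxyd genes of chromosome 7 and their neighbours on each array, in the order of the chromosome, with group means as lines and adult cornea, P10 cornea, lens and tendon from left to right for each gene. Fxyd5 was highest in tendon, Fxyd1 in tendon and lens, Fxyd3 in corneas, and Hpn lay at a like level on all 9 arrays.

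The promoters of these neighbours, which were read so differently across tissues, are shown with that of Atp1b3, which was read in all of them. They are the 250 bases before the transcription start in RefSeq (GRCm38.p6), at chr7:31054854-31055103 for Fxyd1, chr7:31076698-31076947 for Fxyd3 and chr9:96364432-96364681 for Atp1b3, each on the minus strand and written 5' to 3'. The Fxyd1 start used lies within the span of the gene. Capitals mark CACCC, the core of the box bound by Krüppel-like factors, and GGGCGG, the GC box bound by Sp1, each on either strand; matches of the 2 motifs may share bases.
Fxyd1: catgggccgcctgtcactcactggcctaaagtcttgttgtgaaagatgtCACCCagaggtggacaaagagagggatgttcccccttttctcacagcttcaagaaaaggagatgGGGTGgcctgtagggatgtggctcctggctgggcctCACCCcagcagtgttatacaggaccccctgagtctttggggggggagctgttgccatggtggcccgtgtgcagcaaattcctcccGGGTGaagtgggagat
Fxyd3: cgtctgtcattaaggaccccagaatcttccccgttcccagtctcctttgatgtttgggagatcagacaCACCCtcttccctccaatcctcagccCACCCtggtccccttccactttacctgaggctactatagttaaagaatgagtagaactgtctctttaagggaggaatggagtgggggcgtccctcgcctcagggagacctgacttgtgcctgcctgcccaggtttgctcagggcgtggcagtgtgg
Atp1b3: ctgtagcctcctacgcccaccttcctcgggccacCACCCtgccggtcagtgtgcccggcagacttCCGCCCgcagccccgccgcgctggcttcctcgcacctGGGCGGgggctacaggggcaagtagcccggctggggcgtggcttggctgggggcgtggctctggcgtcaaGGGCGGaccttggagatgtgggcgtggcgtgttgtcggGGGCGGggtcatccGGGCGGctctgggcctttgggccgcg
CACCC occurred 4 times before Fxyd1, 2 times before Fxyd3 and 1 time before Atp1b3, and at least once in 52% of 32851 such windows. GGGCGG occurred 5 times before Atp1b3, was not in the Fxyd1 and Fxyd3 windows or in the window of a second Atp1b3 start at chr9:96363716-96363965, which held 1 CACCC, and was present in 32.7% of all windows. Of the other genes, Atp1b1 and Aqp5 had 2 GC boxes each in their windows and Aqp1 had 1. A match describes the letters of the window and does not show binding.

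Aqp1 was the only water channel of the rule with a probe set of its own. It encodes AQP1, which also fills the membranes of red blood cells and capillary endothelium. Its first probe set read 149.9, 180.1 and 126 in adult cornea, 183 and 156 in P10 cornea, 133 and 64.8 in lens, and 240.2 and 269 in tendon. Tendon was above all other arrays, the corneas of both ages overlapped, and the lens arrays were apart from each other by more than those of any other group. Lens was 2.46-fold below tendon (log2 -1.30 ± 0.29 SE, limma adjusted p = 0.00428), a call kept in all 18 settings. Adult cornea differed from tendon by -0.70 ± 0.27 SE in log2 (limma adjusted p = 0.0684) and from lens by 0.60 ± 0.27 SE (limma adjusted p = 0.0839), and P10 cornea from lens by 0.75 ± 0.29 SE (limma adjusted p = 0.0538). P10 cornea differed from tendon by -0.55 ± 0.29 SE (limma adjusted p = 0.195). The differences from lens depended on the lens arrays: without lens replicate 1 both were called (limma adjusted p = 0.00997 for adult and 0.00719 for P10 cornea), and without lens replicate 2 they were not (0.648 and 0.385). With trimmed mean scaling both were called as well (limma adjusted p = 0.0372 and 0.0486). Adult cornea against tendon was called with a pseudocount of 64, with quantile normalization, with 2 groups fitted alone and without either lens array, and its limma adjusted p ran from 0.0248 to 0.2803 over the settings.

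The cells that carry AQP1 elsewhere were measured beside it. The alpha globin gene Hba-a1 read 467 to 775 in adult cornea, 1148 and 1713 in P10 cornea, 204 and 215 in lens, and 1593 and 1473 in tendon. Alas2, of heme synthesis, and Slc4a1, the red cell anion exchanger, ran the other way, at 213 and 198 and at 188 and 237 in lens, and at 41.1 to 86.1 and 44.2 to 64.6 on the other arrays. The 3 measured red cell markers of 7 listed summed to 598 to 891 in adult cornea, 1280.2 and 1863 in P10 cornea, 606 and 649.98 in lens, and 1699 and 1583 in tendon. Cdh5, the cadherin of vascular endothelium, read -6.02 to 7.37 in adult cornea, 38.2 and 54.4 in P10 cornea, -3.83 and -13.8 in lens, and 109.7 and 127 in tendon, and the 5 vascular markers, with values below 0 set to 0, summed to 225 to 347 in adult cornea, 222 and 355 in P10 cornea, 263 and 188 in lens, and 385 and 411 in tendon. Kdr, a receptor of vascular endothelial growth factor, read 104 to 293 in adult cornea, 145 and 249.7 in P10 cornea, 198 and 121 in lens, and 177 and 167 in tendon. Pecam1 was above 0 in adult cornea, at 22.6 to 101, and below 0 on the other 6 arrays. The part of blood and vessels in the Aqp1 levels was not tested. Of 5 markers listed for corneal endothelium 3 were measured, with sums of 351 to 464 in adult cornea, 1305 and 1285 in P10 cornea, 630.2 and 629 in lens, and 2252 and 2217 in tendon. Col8a1, a collagen gene of Descemet's membrane, read 61.3 to 86.3 in adult and 466 and 437 in P10 cornea. It read 369 and 380 in lens, and 150 and 199 in tendon. Tjp1, a tight junction gene, read 248 to 379 in adult and 813 and 816 in P10 cornea. It was highest in tendon, at 2082 and 1995, and read 234 and 228 in lens. Slc4a4, the sodium bicarbonate cotransporter gene, read 16.8 to 32.0 on all 9 arrays. The 5 listed keratocyte markers summed to 4551 to 5414 in adult cornea and to 7793 and 7718 in P10 cornea. Their sums were 2847 and 1416 in lens, and 7698 and 8466 in tendon. The keratocyte markers did not share an order. Dcn was highest in tendon and Kera and Lum in P10 cornea, while Ptgds and Aldh1a1 were lowest in tendon. The part of keratocytes in the Aqp1 levels was not tested.

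The second Aqp1 set has an identifier that ends in _i_at, which marks fewer unique probes than the design required. It read 160.4, 31.2 and 191 in adult cornea, 128 and 131 in P10 cornea, 128 and 112 in lens, and 116 and 128 in tendon. Adult cornea replicate 2 lay far below the other 8 arrays, which ran from 112 to 191. No difference was called, with limma adjusted p from 0.796 to 0.976 in the 5 comparisons between tissues. Without adult cornea replicate 2, adult cornea was above lens by 0.50 in log2 (limma adjusted p = 0.0433). The call of a lower Aqp1 level in lens than in tendon thus rests on the first probe set.

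Between adult and P10 cornea none of the genes was called. The comparison addressed whether the pump and channel genes measured here change as the cornea matures, in mice sampled before and after the eyelids open. Of the 7 tested probe sets 0 passed in limma, with 0 at an unadjusted p under 0.05 and 0 by the methods' t-test, with its fold and difference limits or after Benjamini-Hochberg adjustment. Over all tested probe sets limma called 4.57% (0.699% higher and 3.88% lower in the adult), 15.7% had an unadjusted p under 0.05, and the methods' t-test called 2.6% with its limits and 0% after adjustment. Fxyd3 was at 1732 ± 80.6 (SD, n = 3) in adult cornea and 1728 ± 27.8 (n = 2) at P10, and its difference in log2 of 0.0024 had a 95% interval from -0.47 to 0.48, or 0.721-fold to 1.39-fold. Atp1b1 (first set) was 111 ± 1.64 in adult and 98.01 ± 4.41 in P10 cornea, with an interval from -0.22 to 0.53. Atp1b3 had an interval from -0.47 to 0.65, Fxyd1 from -0.62 to 0.64 and Aqp1 (first set) from -0.74 to 0.44. The summed endothelial markers given above were lower in adult than in P10 cornea but highest in tendon, so that the sum does not track corneal endothelium alone. Their part in this comparison was not tested. The intervals of Atp1b2 (-0.14 to 1.19) and of the second Aqp1 set (-1.41 to 0.85) were wide and included changes of more than 2-fold.

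In the comparisons between tissues the calls among these probe sets are to be read against those among all. For adult cornea against lens 2 of the 7 were higher and 2 lower, where 27.2% and 24% of all tested probe sets were (51.2% in either direction). For adult cornea against tendon 2 were higher and 1 lower (16.1% and 18.9% of all, 35% together), and for P10 cornea against tendon also 2 and 1 (15.7% and 11%, 26.7% together). For P10 cornea against lens 2 were higher and 2 lower (31.6% and 19.4%, 51% together), and for lens against tendon 2 and 2 (22.6% and 26.4%, 49% together). The methods' t-test with its limits called 3 of the 7 in each comparison of cornea with lens or tendon and 1 for lens against tendon, where it called 22.9% and 17% of all for adult cornea against lens and tendon, 21.9% and 14.4% for P10 cornea against lens and tendon, and 24.1% for lens against tendon. After Benjamini-Hochberg adjustment, in the same order, it called 4, 4, 1, 0 and 1 of the 7, against 18.8%, 16.1%, 10.6%, 7.76% and 18.4% of all. In the comparisons of cornea with lens or tendon, each limma call of a lower level was of Atp1b2 (first set) or Fxyd1. Both passed the filter only through the tissues where they were high, so those calls were bound to follow. The same holds for Atp1b2 among the higher calls of lens over tendon. Comparisons that share a group share its arrays and are not independent.

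Genes whose profile over the 9 arrays was closest to each member are named as a description, since the 9 points form 4 tissues. Fxyd3 was followed most closely by Sdc1, Sfn and Dsp (Pearson r = 0.993, 0.992 and 0.992 on log2 values), the genes of syndecan 1, stratifin and desmoplakin. Fxyd1 was followed by S100a4, Pgam2 and Pla2g5 (r = 0.993, 0.990 and 0.987). Pgam2, a muscle form of phosphoglycerate mutase, averaged 1.63 in adult cornea, 3.25 in P10 cornea, 1001 in lens and 955 in tendon. The closest to Atp1b2 were Fam110a, Slc25a25 and Moxd2 (r = 0.993, 0.992 and 0.991), to Atp1b3 Rpl13a, Pja1 and Xpo7 (r = 0.987, 0.986 and 0.981), to Atp1b1 Sh3bp1, Cd6 and Ntsr1 (r = 0.993, 0.985 and 0.969), and to Aqp1 Mtdh, Ndufa9 and Synj2bp (r = 0.987, 0.983 and 0.981).

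Of 23 other pump and water channel genes, 11 had a probe set and 5 were tested. Mip, the gene of the lens fibre water channel AQP0, read 27.2 to 37.7 in adult cornea, 43.8 and 76.5 in P10 cornea, 1918 and 1799.6 in lens, and 11.7 and 14.2 in tendon, with a difference in log2 of -5.26 for adult cornea against lens (limma adjusted p = 2.27e-07). Mip too passed the filter through its lens arrays alone. Like Atp1b2 (first set), Mip was high on the 2 lens arrays and low on the other 7. Atp4b, the beta subunit of the gastric proton pump, read 84.2 to 102 in adult cornea, 104 and 105 in P10 cornea, 430.1 and 376 in lens, and 139 and 124 in tendon, and was 3.74-fold lower in adult cornea than in lens (limma adjusted p = 1.44e-05). In the list as a whole 1 of the 5 tested genes was higher and 2 lower in adult cornea against lens (27.2% and 24% of all tested probe sets), 1 and 1 against tendon (16.1% and 18.9% of all), and 0 and 0 against P10 cornea (0.699% and 3.88% of all). Aqp2, the water channel of the kidney collecting duct, completes the 5 and is given after its values were seen: it read between 295 and 387 on all 9 arrays and was called in none of the 6 comparisons. Aqp4, Aqp7, Aqp8, Aqp9, Fxyd2 and Atp4a were not tested, and their indices ran from -2.66 to 86.6.

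Among 50 listed names of ion, bicarbonate and calcium transport genes, 32 had a probe set and 21 were tested. In adult cornea 5 were higher and 10 lower than in lens (27.2% and 24% of all tested probe sets), and 3 higher and 6 lower than in tendon (16.1% and 18.9% of all), with a median difference in log2 of -0.094 and -0.33 over the tested genes, against 0.077 and 0.0065 over all tested probe sets. Of those lower than in lens, Slc4a1, Clca1 and Atp2b2 passed the filter through their lens arrays alone, which favours such calls. Slc12a2, the sodium-potassium-chloride cotransporter NKCC1 that loads chloride into secreting epithelia, read 1404, 844 and 654 in adult cornea, 904 and 829.6 in P10 cornea, 258 and 134 in lens, and 176 and 237 in tendon, 4.61-fold higher in adult cornea than in lens (limma adjusted p = 0.000420) and 4.24-fold higher than in tendon (limma adjusted p = 0.000924). Slc9a3r1, a scaffold for membrane transporters, read 287, 272 and 341 in adult cornea, 184 and 218 in P10 cornea, 5.48 and -39.4 in lens, and 112 and 121 in tendon. Both were high in cornea, where Fxyd3 was.

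Other transport genes were highest in lens or tendon. Car2, the cytosolic carbonic anhydrase, was 5.49-fold lower in adult cornea than in lens (limma adjusted p = 0.000338), and Kcnq1, a potassium channel of epithelia and heart, 2.86-fold lower (limma adjusted p = 0.000763). Genes known from muscle were high on the tendon arrays: Atp2a1, the calcium pump of fast muscle, read 80.2 to 113 in adult cornea, 87.7 and 134 in P10 cornea, 72.6 and 79.7 in lens, and 5693 and 6812 in tendon, and Car3, a carbonic anhydrase of muscle and fat, was 22.9-fold lower in adult cornea than in tendon (limma adjusted p = 1.03e-07). Car3 was also the 1 gene of the list called between the ages, at 216, 225 and 183 in adult and 94.5 and 85.3 in P10 cornea, a 2.11-fold difference with the adult higher (limma adjusted p = 0.0114). The other 20 tested genes of the list were not called between the ages. Among all tested probe sets 0.699% were called higher and 3.88% lower in the adult.

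**Figure D5:**
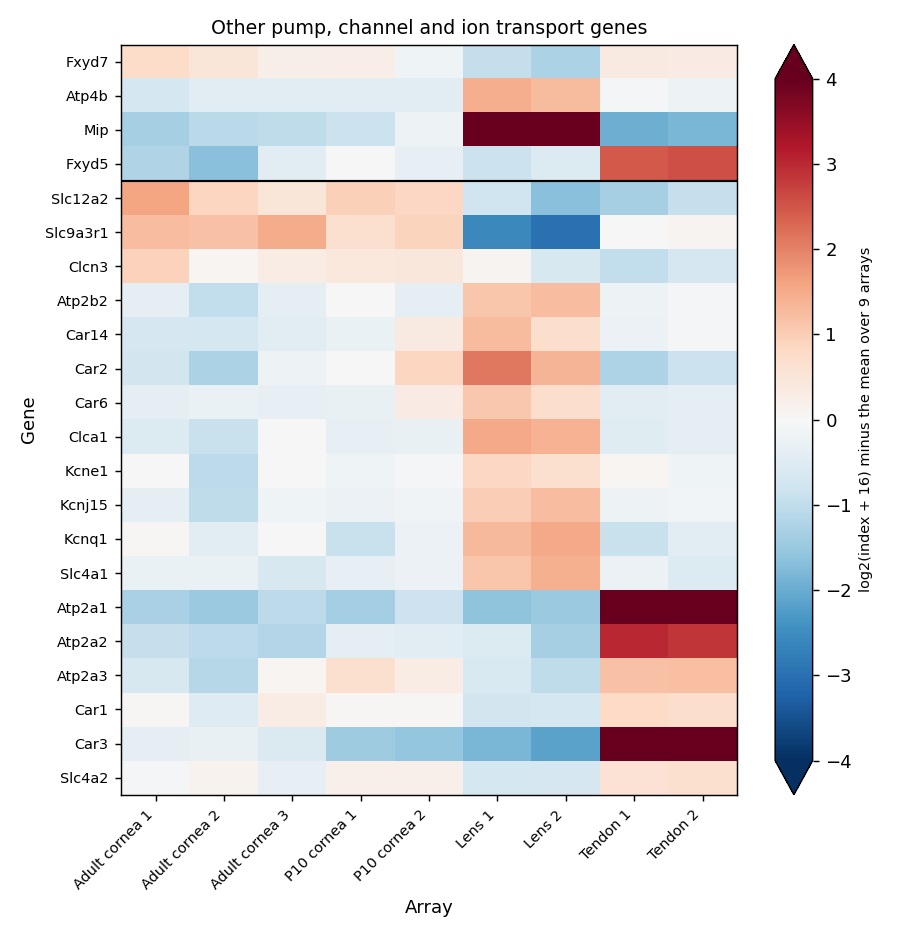
Values of log2(index + 16) minus their mean over the 9 arrays for the 22 other pump, channel and transport genes called by at least 2-fold in 1 or more comparisons, with the 4 pump and water channel genes above the line; the colour scale ends at -4 and 4. Mip was high on lens arrays, Fxyd5, Atp2a1, Atp2a2 and Car3 on tendon arrays, and Slc12a2 and Slc9a3r1 on cornea arrays.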

How the data were processed

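The deposited values are a linear expression intensity per probe set in arbitrary units, on a scale common to the arrays. Absolute expression came from Microarray Suite and normalization (by an invariant set) and a model-based index from dChip, per the labels and design text; per the submitters' processing notes the tool was MAS5. The sources used here do not say which program made the deposited values. Values below 0 occurred on every array (157 to 544 probe sets). No genome build is stated.

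Indices at or below 0 were set to 0, 16 was added and log2 was taken. The 66 control probe sets were left out. A group-means model with mean-dependent moderated variance was fitted in R 4.3.3 with limma 3.58.1, over all 9 arrays (5 residual and 4.93 prior degrees of freedom), with two-sided tests adjusted by Benjamini-Hochberg over 8154 probe sets within each of 6 comparisons. The methods' t-test used p under 0.05, a fold of at least 2 and a difference of at least 100, on the same log2 values with a pooled variance. Of 12422 probe sets that are no controls 10833 carry 1 symbol, 396 several and 1193 none. The genes and lists were chosen with earlier results of these data known. All probe sets of the 7 genes were described; other genes were named if their highest probe set was called by at least 2-fold in 1 comparison, with Mip always, and for each gene the 3 nearest profiles. The fit was tested on simulated data, with changes set in probe sets of above-median mean. It recovered 31% to 45% of 2-fold changes and 84% to 92% of 4-fold changes, depending on the comparison. Alternatives covered pseudocounts of 1 and 64, no filter and a filter of 5 arrays, 3 scalings, fitting 2 groups alone, the methods' t-test, the replicate number as a block and each array left out in turn. Promoter sequences came from RefSeq, with 7 windows for 6 of the 7 genes.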

Additional observations from a re-analysis of the deposited data

How the results depend on the processing

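Of 42 differences (7 probe sets in 6 comparisons), 18 were called, 16 of them in every limma setting that tested the probe set. The stricter filter left Atp1b2 (first set) and Fxyd1 untested. None of the 18 changed sign. The exceptions to the 16 were Atp1b1 for P10 cornea against lens and Fxyd3 for lens against tendon. Of 24 uncalled differences 7 were called in some setting. The numbers of called probe sets were 0, 4, 3, 4, 3 and 4 for adult cornea against P10 cornea, lens and tendon, P10 cornea against lens and tendon, and lens against tendon. With the stricter filter, which tests 5 of the probe sets, 2 were called for adult cornea against lens. With no filter, which tests all 9, and when 2 groups were fitted alone, 5 were called for adult cornea against tendon. The methods' t-test with fold and difference called 1 for lens against tendon, and after Benjamini-Hochberg 1 for P10 cornea against lens, 0 for P10 cornea against tendon (3 with an unadjusted p, fold and difference) and 1 for lens against tendon. Leaving out 1 array gave 0, 4 to 5, 3 to 4, 3 to 5, 3 and 3 to 4.

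The labels name no shared animal, and the sources state no pairing by replicate number. Deviations of same-numbered arrays correlated at -0.36 to 0.20. These values cannot decide whether samples were paired, since the deviations in a group of 2 arrays mirror each other. With a replicate block the counts were 0, 4, 3, 5, 3 and 4, and the Fxyd1 and Fxyd3 differences between the ages became -0.13 and -0.0051. Other uncalled differences that changed sign, for which the cause was not tested, were Aqp1 (first set) between the ages with median centring (0.035); Atp1b3 for P10 cornea against lens with trimmed mean scaling (-0.0073) and median centring (-0.16); Atp1b2 for P10 cornea against tendon with a pseudocount of 1 (-0.15); and the second Aqp1 set with quantile normalization and median centring for P10 cornea against lens (-0.12 and -0.13), P10 cornea against tendon (-0.074 and -0.074) and lens against tendon (0.042 and 0.053). Leaving out 1 array turned the sign of uncalled differences, with these ranges: between the ages -0.012 to 0.26 (Atp1b3), -0.30 to 0.32 (Fxyd1), -0.027 to 0.039 (Fxyd3) and -0.67 to 0.39 (second Aqp1 set); adult cornea against lens -0.24 to 0.57 (Atp1b3) and -0.57 to 0.50 (second Aqp1 set); adult cornea against tendon -0.60 to 0.47 (second Aqp1 set); P10 cornea against lens -0.33 to 0.48 (Atp1b3); P10 cornea against tendon -0.31 to 0.72 (Atp1b2); and lens against tendon -0.11 to 0.059 (second Aqp1 set). The median over all tested probe sets was -0.13 between the ages and 0.25 for P10 cornea against lens, and 0.057 and 0.017 with median centring. Low indices near 0 and groups of 2 arrays limit the precision.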
